A study of Homo sapiens with 12 samples.

Results

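The expressed ZNF genes are the protein-coding genes with a symbol made of ZNF, a number and at most a letter, and a mean of at least 10 CPM, that is counts of the gene relative to the total of the library, over 12 RNA-seq libraries. Of the 508 such genes in the count tables, 499 had a count in some library and 188 reached this level. These 188 members were thus chosen by their mean expression, and all of them passed the filter on low counts and were tested. The last members inside the threshold were ZNF724 (10.5 CPM), ZNF174 (10.4 CPM) and ZNF618 (10.1 CPM), and the first genes outside it were ZNF576 (9.88 CPM), ZNF358 (9.72 CPM) and ZNF134 (9.69 CPM). RNA was taken from a human colon cancer line without functional p53, HCT 116 p53-/-, and from uL3ΔHCT 116 p53-/- cells, which the study describes as a sub-line. The sample labels call it an RPL3 knockout and the study's methods describe it as stably silenced for uL3, the ribosomal protein that RPL3 encodes. Cells of each line were treated with vehicle or with 5 nM actinomycin D (Act D), an inhibitor of ribosomal RNA transcription, for 24 h. Each of the 4 groups had 3 libraries, labelled as biological replicates.

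ZNF genes encode proteins with zinc fingers of the C2H2 type, small folds that hold a zinc ion and, in tandem arrays, read DNA sequence. In many of them the fingers follow a KRAB domain, which binds TRIM28 (KAP1). TRIM28 in turn brings the histone methyltransferase SETDB1, HP1 proteins and the NuRD complex to the bound site, and a main known task of KRAB zinc finger proteins is to keep transposable elements silent. The family grew by local duplication, and its largest clusters lie on chromosome 19. Other ZNF proteins have no KRAB domain and serve as activators, RNA-binding proteins, ribosome assembly factors or ubiquitin ligases. Of the 188 members, 58 were on chromosome 19 and 130 on other chromosomes. A KRAB A box was found in the translated canonical transcript of 95 members, 47 of them on chromosome 19. The number of C2H2 fingers per protein had a median of 10 and ranged from 0 to 36.

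The promoters of several members are printed here because 10 members were almost absent from the libraries of either line. The 250 bases upstream of the start site are given 5′ to 3′ on the strand of the gene, from RefSeq's annotation of GRCh38.p14, with each CG dinucleotide in capitals. ZNF304 (chr19:57351021-57351270, plus strand, 17 CG), ZNF83 (chr19:52690497-52690746, minus strand, 23 CG) and ZNF91 (chr19:23395472-23395721, minus strand, 7 CG) were nearly absent from the libraries labelled uL3Δ, and ZNF850 (chr19:36772808-36773057, minus strand, 19 CG) was nearly absent from HCT 116 p53-/- cells.
ZNF304: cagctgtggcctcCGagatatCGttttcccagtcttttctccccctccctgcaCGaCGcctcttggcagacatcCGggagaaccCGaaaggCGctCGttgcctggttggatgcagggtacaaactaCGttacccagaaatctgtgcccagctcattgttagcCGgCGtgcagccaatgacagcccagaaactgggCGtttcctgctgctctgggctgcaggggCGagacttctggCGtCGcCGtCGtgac
ZNF83: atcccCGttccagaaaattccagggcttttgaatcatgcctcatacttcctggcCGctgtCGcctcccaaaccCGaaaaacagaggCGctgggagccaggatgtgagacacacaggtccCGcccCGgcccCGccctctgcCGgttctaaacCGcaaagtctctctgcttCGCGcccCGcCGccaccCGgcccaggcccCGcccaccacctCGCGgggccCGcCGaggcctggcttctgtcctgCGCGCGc
ZNF91: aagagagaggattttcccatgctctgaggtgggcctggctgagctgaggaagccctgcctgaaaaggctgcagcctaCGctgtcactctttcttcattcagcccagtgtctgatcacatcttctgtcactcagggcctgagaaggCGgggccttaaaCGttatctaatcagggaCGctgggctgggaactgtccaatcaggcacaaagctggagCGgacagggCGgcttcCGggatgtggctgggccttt
ZNF850: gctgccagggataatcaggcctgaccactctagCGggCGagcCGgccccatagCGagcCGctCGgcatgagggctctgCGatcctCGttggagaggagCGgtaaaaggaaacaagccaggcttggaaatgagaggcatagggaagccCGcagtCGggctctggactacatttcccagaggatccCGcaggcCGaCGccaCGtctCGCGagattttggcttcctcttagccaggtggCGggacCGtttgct
The search used the letters CG, which read the same on both strands. A promoter was found in the RefSeq table for 163 of the 188 members, and the median number of CG in these was 19, against 11 in all 27305 promoters. At least 15 CG were present in 71.8% of the members' promoters and in 42.7% of all promoters. The set of all promoters was not limited to protein-coding or expressed genes, as the members are, so this contrast cannot show a trait of ZNF genes. Among the 8 promoters of members nearly absent from the libraries labelled uL3Δ the median was 20, and among 63 members whose levels in the lines were within 1.5-fold of each other it was 19. At least 15 CG were present in 62.5% of the former and 79.4% of the latter.

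The libraries had totals between 10087925 and 21138886 expected counts. RPL3 itself had 1138 ± 15.3 CPM in the HCT 116 p53-/- line and 1242 ± 82.5 CPM in libraries labelled uL3Δ (SD, n = 3, vehicle), with a log2 fold change of 0.13 that did not pass the test (adjusted p = 0.15), so these libraries are named by their label throughout. Of 10 colon epithelium markers, KRT8 and KRT18 were high in every group, and the summed level was between 1556 and 2142 CPM in all libraries. A sum of CPM follows its most abundant genes, so it does not show whether each marker was kept. CDH1 and CDX2, however, were at 66.8 ± 2.34 and 14.8 ± 0.58 CPM in HCT 116 p53-/- cells and at 0.44 ± 0.27 and 0.18 ± 0.09 CPM in libraries labelled uL3Δ. The rest of the list is not given gene by gene. Of the 10 markers, 8 had a count in HCT 116 p53-/- cells with vehicle and 9 with Act D. In libraries labelled uL3Δ, 10 had a count with vehicle and 8 with Act D. The sum of 7 mesenchymal markers, mostly VIM, was between 28.0 and 59.7 CPM in the former and between 2258 and 2574 CPM in the latter, and the sums of leukocyte and endothelial markers stayed under 2 CPM. These marker differences accompany every comparison of the lines below, and their part in the results was not tested. Whether the libraries labelled uL3Δ come from a derivative of the same cells was not tested either, so a difference between the lines cannot be assigned to uL3. For reads that could be assigned to more than 1 gene, the deposited posterior standard deviation of a count was taken as a percentage of that count. The median over libraries was used for each member, from the 11 libraries with per-gene values. Across members these medians had a median of 0.0082% and a maximum of 4.90%. Libraries with fewer than 10 counts of a member did not enter, so the values say little about members nearly absent from a line.

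On the TPM scale, which divides by transcript length and allows levels of different genes to be compared, the 6 members with the highest mean over all libraries had no KRAB domain. ZNF207 (BuGZ), which loads BUB3 onto kinetochores, had 79.9 ± 18.2 TPM (SD over 12 libraries). ZNF146, a protein made almost wholly of fingers, had 59.7 ± 10.4 TPM, and ZNF593, a factor of the maturing large ribosomal subunit, had 36.3 ± 11.05 TPM. ZNF121, ZNF622 and ZNF638 followed at 26.2 ± 12.2, 25.6 ± 4.79 and 25.1 ± 7.47 TPM. These means span both lines, and their order changed between them. With vehicle, ZNF121 had 42.05, 34.18 and 33.82 TPM in HCT 116 p53-/- cells, above the 22.39, 18.89 and 16.69 TPM of ZNF622. In libraries labelled uL3Δ it had 14.68, 12.14 and 15.37 TPM, below the 33.51, 23.63 and 25.24 TPM of ZNF622. With Act D, ZNF622 (28.91 to 29.83 TPM) was also above ZNF593 (21.79 to 25.63 TPM) there, while ZNF207 was the highest of these 6 genes in every library and ZNF146 next. The members' summed level on the CPM scale was 6895 ± 143 CPM in HCT 116 p53-/- cells with vehicle and 6863 ± 79.5 CPM with Act D. It was 5337 ± 97.4 CPM in libraries labelled uL3Δ with vehicle and 4967 ± 312 CPM after Act D (each n = 3, SD). Every library labelled uL3Δ lay below every library of HCT 116 p53-/- cells, both for all members and for those on chromosome 19. These sums include members that reached the mean of 10 CPM through HCT 116 p53-/- cells, which adds to this difference. They also follow the most abundant members, so they do not show how each member differed. The size of the difference depended on the scale. Summed TPM of all members was 1711 ± 123 with vehicle and 1656 ± 86.3 with Act D in HCT 116 p53-/- cells. In libraries labelled uL3Δ it was 1036 ± 167 and 916 ± 67.1 (each n = 3, SD). In bulk RNA, fewer transcripts per cell and fewer cells that express a gene cannot be told apart.

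**Figure D1:**
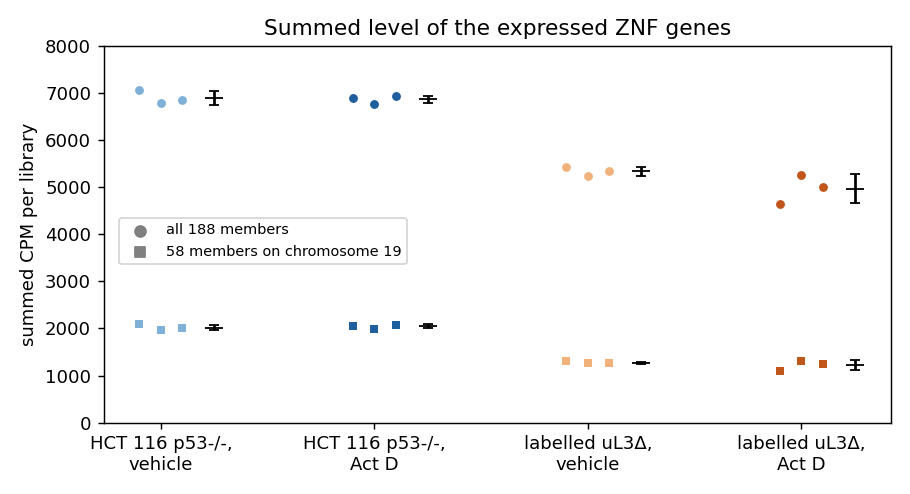
Summed CPM of all 188 members (circles) and of the 58 on chromosome 19 (squares) in each library, with the mean and SD of 3 libraries beside them. The sums of all members were between 6775 and 7057 CPM in HCT 116 p53-/- libraries and between 4641 and 5428 CPM in libraries labelled uL3Δ. They include members that reached the mean of 10 CPM through the line where they are high.

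Between the lines with vehicle, most members that changed were lower in libraries labelled uL3Δ. Of 188 members, 146 had an adjusted p under 0.05, 34 higher and 112 lower, and the median log2 fold change was -0.59. Over all 15692 genes tested, 71.3% passed the same test, 35.1% higher and 36.2% lower, with a median of -0.02, and for the 8753 other protein-coding genes at 10 CPM or more 76.9% passed, with a median of 0.02. The share of members that passed was thus near that of other genes, while 59.6% of members were lower against 36.2% of all genes. With Act D, 149 members passed, 29 higher and 120 lower, with a median of -0.59, and over all genes 70.4% passed, 35.1% higher and 35.3% lower. The vehicle and Act D comparisons of the lines share no library, and 129 members passed in both, 103 lower in both, 24 higher in both and 2 in opposite directions, which is 88.4% of the former and 86.6% of the latter. Over all genes tested 9612 passed in both, 85.9% and 87.0% of the respective calls, so the members' overlap was near that of other genes. Members with 10 CPM or more in only some groups had to differ between groups, and the 116 members at 10 CPM or more in each group had a median of -0.21 with vehicle, with 25 higher and 54 lower. When libraries were scaled by their totals without TMM factors, the median over all genes moved to -0.26 and that of the members to -0.83, with 22 members higher and 132 lower.

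The largest differences were near losses of expression. ZNF304, a KRAB protein known in colorectal cancer cells for a corepressor complex at the INK4-ARF locus (chr19:57351271-57359898, hg38, plus strand), was at 20.03, 21.3 and 21.0 CPM in vehicle-treated HCT 116 p53-/- cells and at 0.0803, 0.200 and 0.338 CPM in libraries labelled uL3Δ. With Act D it was at 28.0, 24.9 and 27.1 CPM in the former and at 1.02, 0.799 and 0.232 CPM in the latter. All 6 libraries of HCT 116 p53-/- cells lay far above the others, and the log2 fold change was -6.56 ± 0.26 (SE) with vehicle and -5.17 ± 0.23 (SE) with Act D, with adjusted p of 2.6e-13 and 1.4e-12 from edgeR's quasi-likelihood test.

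ZNF91 (chr19:23304991-23395471, minus strand), which represses SVA and LINE-1 elements, was at 31.0, 30.03 and 31.3 CPM in HCT 116 p53-/- cells with vehicle and at 0.321, 0.250 and 0.540 CPM in libraries labelled uL3Δ, a log2 fold change of -6.38 ± 0.27 (SE, adjusted p = 5.6e-13). ZNF518B (chr4:10439880-10457426, minus strand), which has no KRAB domain and is known to bind the H3K9 methyltransferase EHMT2, was at 64.1, 57.4 and 57.7 CPM against 0.803, 0.250 and 0.675 CPM, a log2 fold change of -6.78 ± 0.21 (SE, adjusted p = 9.6e-15). For both genes the lines did not overlap with either treatment, which the choice of named genes required. ZNF264, ZNF83 and ZNF724 changed by -6.51, -6.31 and -5.39 on the same scale, and ZNF558, a KRAB repressor of the mitophagy gene SPATA18, by -5.36. The remaining members under 10% of the level in HCT 116 p53-/- cells were ZNF714 at 7.58% and ZNF704 at 4.32%. In all, 9 members met this limit, 7 of them on chromosome 19. Each of the 9 reached the mean of 10 CPM through HCT 116 p53-/- cells, where it is high. Genes outside the family were not counted at this limit, and the lowest log2 fold change among the 8753 other protein-coding genes was -9.82.

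The only member under 10% in the other direction was ZNF850 (chr19:36714383-36772825, minus strand), a KRAB protein with 29 fingers. It was at 0.389, 0.620 and 1.27 CPM in HCT 116 p53-/- cells with vehicle and at 22.8, 23.8 and 27.6 CPM in libraries labelled uL3Δ, and the log2 fold change was 4.99 ± 0.24 (SE, adjusted p = 2.8e-12) with vehicle and 5.18 ± 0.24 (SE, adjusted p = 2.8e-12) with Act D. ZNF850 in turn reached the mean of 10 CPM through the libraries labelled uL3Δ. Members nearly absent from a line were seldom at 0 in the libraries of the line with the low level. The 3 vehicle-treated libraries labelled uL3Δ held 10 counts of ZNF304, 17 of ZNF91 and 25 of ZNF518B in all, against 965, 1434 and 2777 in HCT 116 p53-/- cells, and the epithelial marker CDH1 had a similar low level there, as given above. Whether these counts come from the cells of that library was not tested.

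**Figure D2:**
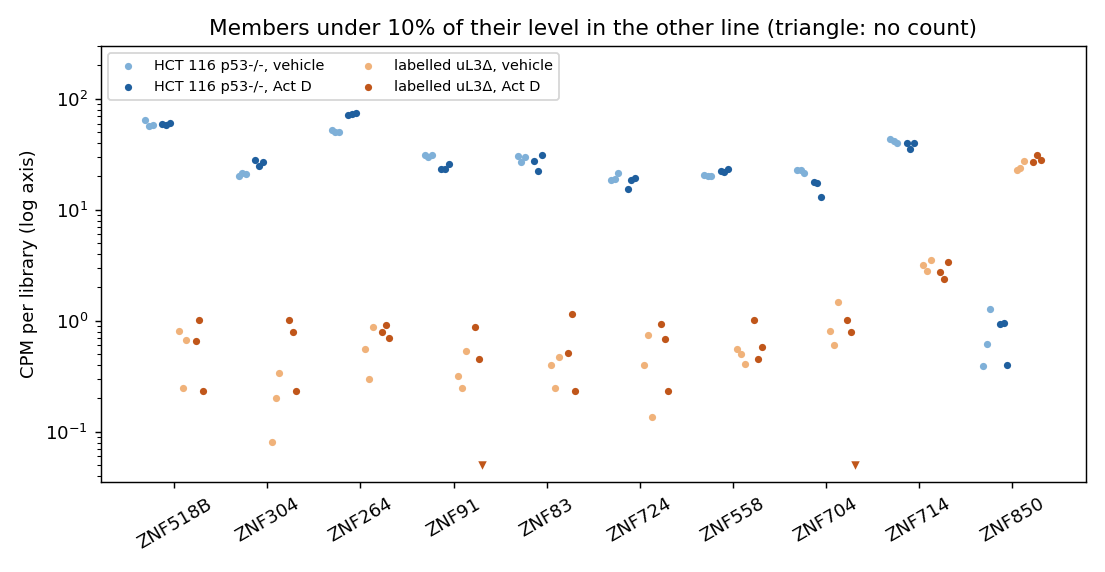
CPM per library on a log axis for the 10 members whose mean with vehicle was under 10% of the other line's. A triangle at the foot marks a library with no count. ZNF850 was high in libraries labelled uL3Δ and the other 9 were high in HCT 116 p53-/- cells, in all libraries with either treatment.

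Among members higher in libraries labelled uL3Δ, ZNF703, a cofactor of transcription that is amplified in luminal breast cancer and in whose protein no C2H2 finger was found, rose from 1.94, 2.96 and 4.11 CPM to 18.4, 16.2 and 16.1 CPM with vehicle. Its log2 fold change was 2.48 ± 0.20 (SE, adjusted p = 3.8e-09). ZNF614, ZNF462, ZNF697 and ZNF266 were higher by 1.81, 1.76, 1.58 and 1.54 on the log2 scale with vehicle, and ZNF22 by 1.45 with Act D. ZNF462 is a large protein with 33 fingers known to act with HP1, and ZNF614 and ZNF266 are KRAB proteins of chromosome 19, where most other members were lower. For all 6 genes the 3 libraries of the lines did not overlap, which the choice of these genes required. Without overlap with vehicle were 38 higher and 115 lower members, and 5572 higher and 5804 lower of all 15692 genes tested.

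The median difference was further below 0 for members on chromosome 19 and for members with a KRAB domain. With vehicle, 44 of the 58 members on chromosome 19 were lower and 9 higher, with a median log2 fold change of -0.90, and 68 of the 130 members elsewhere were lower and 25 higher, with a median of -0.31. The 481 other protein-coding genes of chromosome 19 at 10 CPM or more had 158 lower and 179 higher, with a median of 0.04. Of the 95 KRAB members, 66 were lower and 10 higher (median -0.82), and of the 93 without the domain 46 were lower and 24 higher (median -0.27). Both features together marked 47 genes with a median of -1.06, of which 38 were lower and 6 higher. The 48 KRAB members on other chromosomes had a median of -0.54, with 28 lower and 4 higher. The 82 members with neither feature had a median of -0.25, with 40 lower and 21 higher. These medians hold members that reached the mean of 10 CPM through the line where they are high. Among the 116 members at 10 CPM or more in each group, a limit that in turn removes members with a strong decrease, the median was -0.60 for 24 on chromosome 19 and -0.19 for 92 elsewhere. It was -0.33 for 48 with a KRAB domain and -0.04 for 68 without. The subgroup limits were added after the data were seen, and the differences between subgroups were not tested.

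KRAB members were less abundant than the others, with a median of 19.1 CPM against 25.2 CPM, and the 209 tested ZNF genes below 10 CPM also had more lower (111) than higher (42) calls, with a median of -0.65. Along chromosome 19, members separated by under 1 Mb were placed in the same cluster. The cluster at the end of the long arm (chr19:57191500-58475436) held 14 members, all with a KRAB domain, of which 12 were lower and 2 higher. A cluster of 11 members (chr19:52012765-53461862) had 9 lower and 1 higher, and ZNF724 and ZNF91, at chr19:23221599-23395471, were both nearly absent. Among the 3 members at chr19:55635459-56160893, ZNF581, ZNF787 and ZNF444, none has a KRAB domain, 2 were higher and none was lower. The 4 members at chr19:36214602-37369365 had 2 higher and 1 lower. These clusters are examples among 16, and over all genes tested 35.1% were higher and 36.2% lower. Their counts include members that reached the mean of 10 CPM through the line where they are high, as ZNF724 and ZNF91 did.

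**Figure D3:**
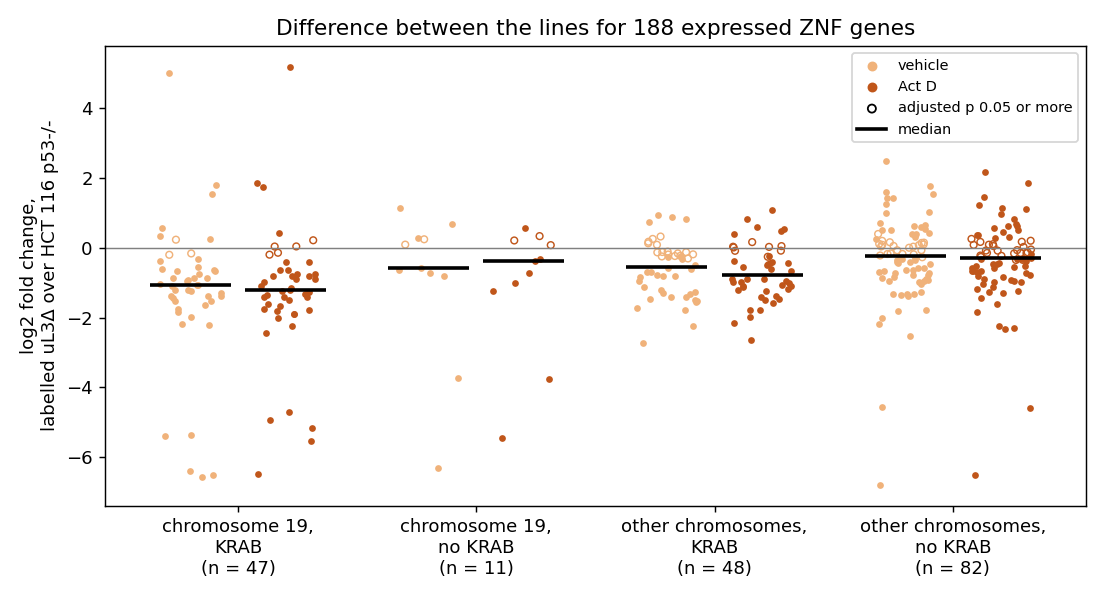
Log2 fold change of each member between the lines, libraries labelled uL3Δ over HCT 116 p53-/-, with vehicle and with Act D, by chromosome and KRAB domain. Filled points passed an adjusted p of 0.05 and black bars are medians, which with vehicle were -1.06, -0.59, -0.54 and -0.25 from left to right.

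The genes that act with KRAB proteins were changed in both directions. Of 31 genes for TRIM28 corepressor and H3K9 methylation functions, 12 were higher with vehicle in libraries labelled uL3Δ and 14 were lower. Together these are 83.9%, against 71.3% of all genes tested and 76.9% of the other protein-coding genes at 10 CPM or more. The median log2 fold change was -0.19. TRIM28 had 698 ± 68.1 CPM in the HCT 116 p53-/- line and 368 ± 83.9 CPM in libraries labelled uL3Δ (SD, n = 3), a log2 fold change of -0.92 (adjusted p = 2.5e-06). SETDB1, the methyltransferase that TRIM28 brings to its targets, was lower by -0.52 (adjusted p = 5.9e-05), and EHMT2, an H3K9 methyltransferase, and DNMT1 by -1.12 and -0.90. MTA2, a NuRD subunit, SUV39H2 and MORC2, which acts with the HUSH complex, were higher by 0.97, 1.00 and 0.90. Other zinc finger families had 5 higher and 13 lower of 21 tested ZSCAN and ZKSCAN genes, 9 higher and 19 lower of 39 ZBTB genes, and 4 higher and 6 lower of 13 ZFP genes. The shares that passed were 85.7%, 71.8% and 76.9%, against 71.3% of all genes tested. The shares that were lower were 61.9%, 48.7% and 46.2%, against 36.2% of all genes tested.

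In HCT 116 p53-/- cells Act D changed fewer members, about equally in both directions. Of 188 members, 44 passed, 21 higher and 23 lower, with a median log2 fold change of -0.01. Over all genes tested 18.7% passed, 7.59% higher and 11.1% lower, and over the other protein-coding genes at 10 CPM or more 26.1% passed, so that the members' 23.4% was near the background. Without Act D replicate 1 the number of members was 27, with 11 higher and 16 lower, and 13 were higher without vehicle replicate 2 and 14 without vehicle replicate 3. ZNF316 (chr7:6637318-6658279, plus strand), a KRAB protein, had the largest decrease, from 31.6, 34.9 and 36.4 CPM to 10.7, 14.1 and 10.1 CPM. The groups did not overlap, which the choice of named genes required, and the log2 fold change was -1.56 ± 0.12 (SE, adjusted p = 1.8e-07).

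ZNF407 (chr18:74597870-75065671, plus strand) fell from 28.5, 26.6 and 30.5 CPM to 10.7, 11.2 and 14.8 CPM (log2 fold change -1.23 ± 0.16 SE, adjusted p = 2.8e-05). ZNF609 fell from 58.5, 60.5 and 57.5 CPM to 29.5, 26.0 and 31.4 CPM (-1.02 ± 0.10 SE, adjusted p = 2.7e-06), and ZNF827, which brings NuRD to telomeres, by 0.96 on the log2 scale. ZNF367 and ZNF678 each fell by 0.85. None of these 6 genes lies on chromosome 19. The largest increase was that of ZNF703, from between 1.94 and 4.11 CPM to between 5.31 and 6.02 CPM, a log2 fold change of 0.89 ± 0.22 (SE, adjusted p = 0.0086). ZNF654 rose from 16.5, 14.3 and 15.7 CPM to 25.2, 26.8 and 28.8 CPM (0.79 ± 0.12 SE, adjusted p = 0.0002). ZNF805, ZNF761, ZNF217 and ZNF622 rose by 0.59, 0.53, 0.53 and 0.52, of which ZNF217 is an oncogene that acts with the CoREST complex and ZNF622 a factor of late large-subunit assembly. The call for ZNF761 was lost without Act D replicate 1 (adjusted p = 0.061), Act D replicate 3 (0.060), vehicle replicate 2 (0.059) or vehicle replicate 3 (0.071).

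In libraries labelled uL3Δ, more members were lower with Act D than higher, as was so for other genes. Here 51 members passed, 17 higher and 34 lower, with a median of -0.08, against 11.9% of all genes tested, 3.51% higher and 8.4% lower, and 17.3% of the other protein-coding genes at 10 CPM or more. Of members, 18.1% were lower and 9.04% higher, against 13.2% and 4.11% of those other genes, so that both shares were above the background. Lower calls were 66.7% of the members' calls, 70.5% of those of all genes and 76.2% of those of the other protein-coding genes. Without Act D replicate 1 the number fell to 29, with 13 higher and 16 lower. The members that were higher numbered 4 without Act D replicate 2, 8 without Act D replicate 3, 10 without vehicle replicate 1, 8 without vehicle replicate 2 and 9 without vehicle replicate 3, with between 28 and 36 lower. Without TMM factors there were 6 higher and 51 lower, and the median of all genes was then -0.07. ZNF710 (chr15:90001324-90082206, plus strand) was at 29.96, 21.5 and 18.97 CPM with vehicle and at 11.1, 10.7 and 10.2 CPM with Act D. The vehicle libraries lay above the others but were spread, and the log2 fold change was -1.12 ± 0.15 (SE, adjusted p = 0.00011).

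ZNF407 fell from 24.1, 15.7 and 17.6 CPM to 8.51, 10.2 and 8.23 CPM (-1.09 ± 0.17 SE, adjusted p = 0.00036). ZNF544, a KRAB gene of the distal cluster on chromosome 19, fell from 19.6, 18.6 and 16.1 CPM to 7.85, 7.99 and 10.1 CPM (-1.08 ± 0.12 SE, adjusted p = 1.8e-05). ZNF827, ZNF587B and ZNF282 fell by 1.03, 0.95 and 0.95. Increases were smaller. ZNF197 rose from 14.9, 13.7 and 13.9 CPM to 18.98, 22.2 and 23.8 CPM (0.61 ± 0.12 SE, adjusted p = 0.0019), and ZNF92 by 0.56 to 64.5, 91.8 and 73.2 CPM. ZNF761, ZNF318, ZNF354A and ZNF468 rose by 0.52, 0.52, 0.51 and 0.51. The call for ZNF761 was at the threshold (adjusted p = 0.04999) and was lost under 9 of the 16 alternatives. ZNF318 was lost under 4 of the 16, among them without Act D replicate 1 (adjusted p = 0.065) or vehicle replicate 2 (0.073). ZNF354A was lost without Act D replicate 2 (0.075) or vehicle replicate 1 (0.051), and ZNF468 without Act D replicate 2 (0.068). ZNF304 had a larger fitted increase (1.75, adjusted p = 0.026), but at 10 counts with vehicle and 23 with Act D over 3 libraries each, and the groups overlapped.

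The responses of the lines share no library, and 17 members passed in both, which is 38.6% of the 44 and 33.3% of the 51. Of these 11 were lower in both, 6 were higher in both and none changed in opposite directions. Over all genes tested 768 passed in both, which is 26.1% and 41.1% of the respective calls, with 62 in opposite directions, so that the members' share was above the background in the former and below it in the latter. Across the 188 genes, which are not independent replicates, Pearson's r between the log2 fold changes was 0.49, and it was 0.37 across the 8753 other protein-coding genes. ZNF316, ZNF407, ZNF827, ZNF678, ZNF544 and ZNF587B were lower in both lines and ZNF197, ZNF217, ZNF318 and ZNF761 higher in both. The call for ZNF217 in libraries labelled uL3Δ (0.32, adjusted p = 0.048) was lost without any of 5 of the 6 libraries, with adjusted p up to 0.178, and under 5 other alternatives. In HCT 116 p53-/- cells ZNF318 (0.33, adjusted p = 0.044) was lost without vehicle replicate 1 or 2 or any Act D library, with adjusted p up to 0.143, and under 3 other alternatives. ZNF197 (0.40, adjusted p = 0.012) was lost there under 3 of 16 alternatives, among them without Act D replicate 1 (0.066) or vehicle replicate 2 (0.068). ZNF678 was lost without Act D replicate 1 of the libraries labelled uL3Δ (0.054). Of the 31 corepressor genes, 2 were higher and 7 lower with Act D in HCT 116 p53-/- cells, and 4 higher and 7 lower in libraries labelled uL3Δ. These are 29.0% and 35.5% of the list, against 18.7% and 11.9% of all genes tested. The other protein-coding genes at 10 CPM or more had 26.1% and 17.3%. SMARCAD1, a remodeller that binds TRIM28, fell by 0.66 and 0.92 in the respective lines, EHMT1 by 0.90 and 0.55, and TRIM33 by 0.46 and 0.73, while CBX5, which encodes HP1α, rose by 0.53 and 0.47. TRIM28 itself changed by 0.24 (adjusted p = 0.20) and -0.09 (adjusted p = 0.70), neither of which passed.

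**Figure D4:**
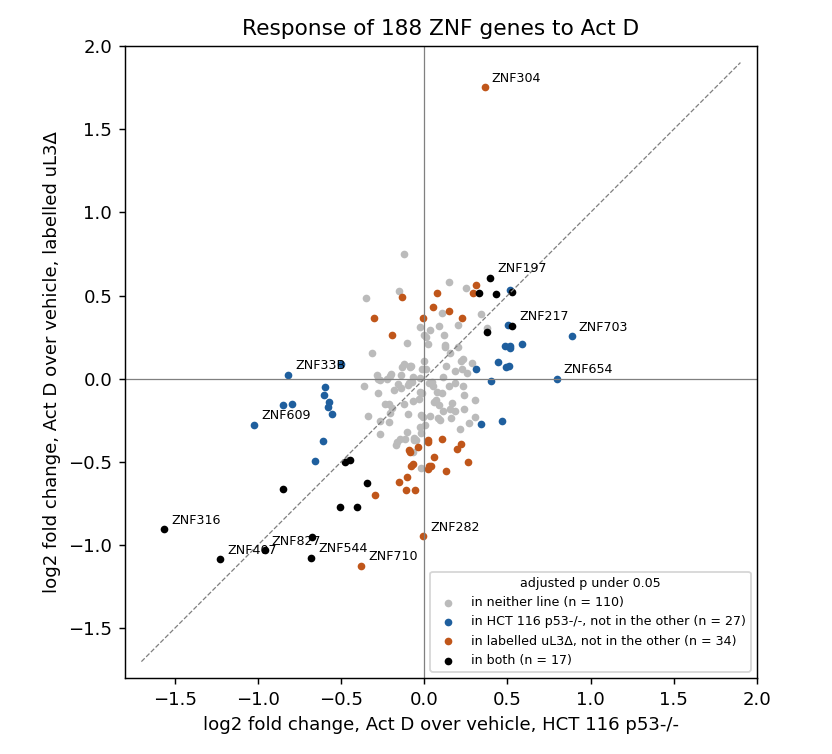
Log2 fold change of each member with Act D in HCT 116 p53-/- cells (horizontal) and in libraries labelled uL3Δ (vertical), coloured by where the adjusted p was under 0.05. The dashed line marks equal change. The 17 members past the threshold in both, in black, lie in the lower left (11) or upper right (6).

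The difference between the responses was tested as an interaction. It passed for 19 members, 8 with a higher and 11 with a lower response in libraries labelled uL3Δ, a share of 10.1%, against 6.53% of all genes tested, 3.3% higher and 3.23% lower, and 9.47% of the other protein-coding genes at 10 CPM or more. The number was between 6 and 23 when a library was left out, at 6 without Act D replicate 1 of the libraries labelled uL3Δ and between 8 and 10 without any Act D library or vehicle replicate 2 or 3 of HCT 116 p53-/- cells. The 6 largest in each direction are as follows. ZNF282, a KRAB protein first known for binding the HTLV-1 repeat (chr7:149195546-149226238, plus strand), was at 34.7, 42.01 and 35.6 CPM with vehicle and 36.1, 41.5 and 34.0 CPM with Act D in HCT 116 p53-/- cells. In the libraries labelled uL3Δ it was at 44.8, 28.8 and 29.2 CPM with vehicle and 18.1, 15.8 and 19.1 CPM with Act D. The groups overlapped in the former line and not in the latter, and the responses differed by -0.94 ± 0.22 (SE, adjusted p = 0.014).

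ZNF654 rose in HCT 116 p53-/- cells as given above and was at 21.7, 23.4 and 21.1 CPM with vehicle and 20.6, 26.95 and 18.9 CPM with Act D in libraries labelled uL3Δ, where the groups overlapped. The responses differed by -0.80 ± 0.18 (SE, adjusted p = 0.011). ZNF609 fell by 1.02 in HCT 116 p53-/- cells and was at 64.7, 55.8 and 65.2 CPM with vehicle and 57.5, 45.5 and 49.6 CPM with Act D in the other libraries, a difference of 0.74 ± 0.14 (SE, adjusted p = 0.00495). ZNF367, a transcription factor gene linked to the cell cycle, went from 45.6, 44.4 and 45.2 CPM to 24.2, 23.7 and 27.3 CPM in the former and from 16.3, 17.6 and 18.2 CPM to values between 12.8 and 17.9 CPM in the latter, a difference of 0.69 ± 0.16 (SE, adjusted p = 0.015). These 4 differences kept an adjusted p under 0.05 under each of the other fits, scalings and filters and without each library, but none reached a log2 difference of 1.

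ZNF33B, ZNF646, ZNF316 and ZNF608 also had a higher response in libraries labelled uL3Δ, by 0.84, 0.66, 0.66 and 0.64. ZNF316 fell in both lines, by 1.56 in HCT 116 p53-/- cells and by 0.90 in the others. ZNF746 (PARIS, a repressor of PGC-1α), ZNF484, ZNF430 and ZNF697 had a lower response there, by -0.76, -0.73, -0.69 and -0.62. For each of these 8 the adjusted p of the difference was between 0.018 and 0.033. The call for ZNF746 was lost without Act D replicate 1 of the libraries labelled uL3Δ (adjusted p = 0.062), and that for ZNF646 without Act D replicate 3 (0.055) or vehicle replicate 2 (0.054) of HCT 116 p53-/- cells. ZNF33B was lost without any of 4 Act D libraries, with adjusted p up to 0.079, and each of the other 5 without between 5 and 10 of the 12 libraries, with adjusted p up to 0.11.

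**Figure D5:**
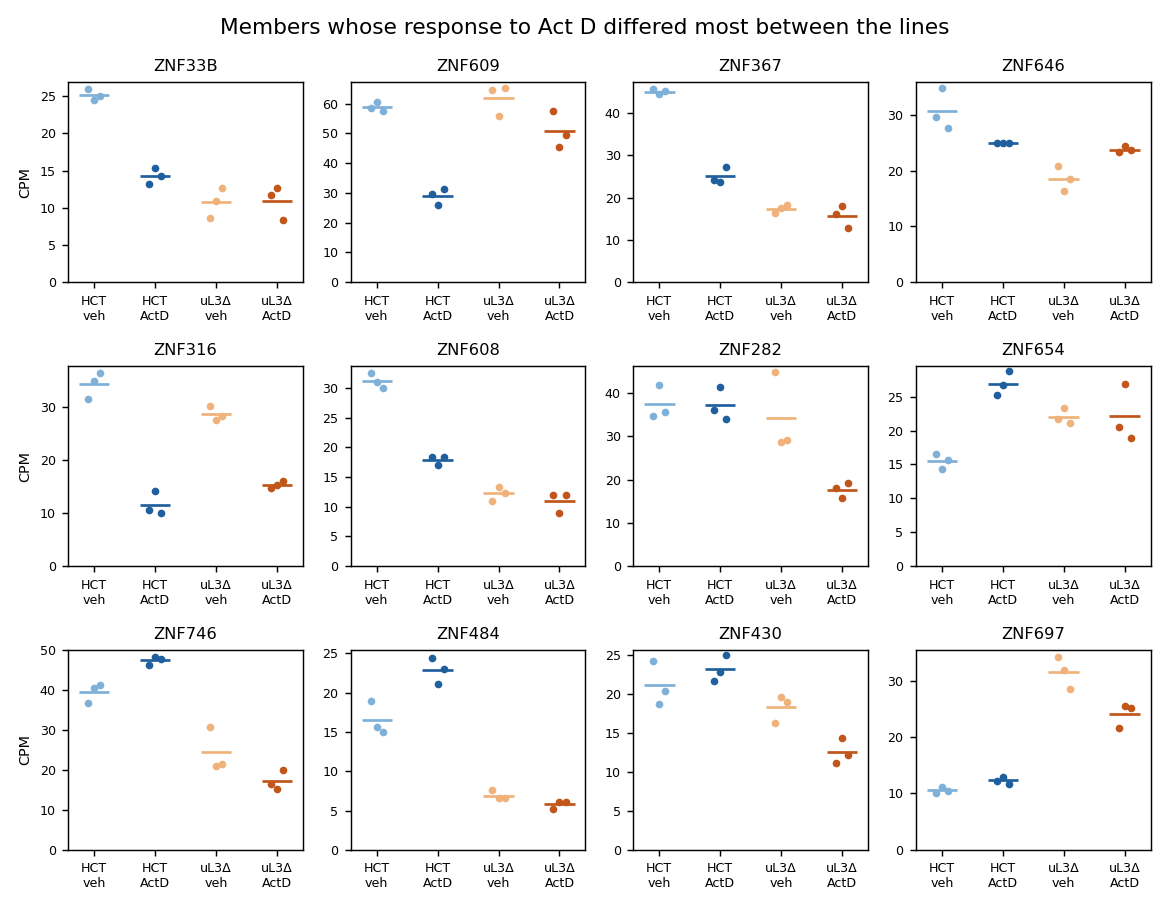
CPM per library, with the mean as a bar, for the 12 members with the largest differences in response to Act D, in HCT 116 p53-/- (HCT) and in libraries labelled uL3Δ, with vehicle (veh) or Act D. Axes start at 0 and differ between genes. ZNF33B, ZNF609, ZNF367 and ZNF608 fell with Act D in HCT 116 p53-/- cells, and ZNF282, ZNF746, ZNF430 and ZNF697 fell in libraries labelled uL3Δ.

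Members with known roles outside KRAB repression were read separately. ZNF622, the human counterpart of yeast Rei1 in late large-subunit assembly, was at 43.4, 41.6 and 34.4 CPM with vehicle and 59.6, 54.6 and 56.6 CPM with Act D in HCT 116 p53-/- cells. In the libraries labelled uL3Δ it was at 86.4, 80.5 and 72.4 CPM with vehicle and 87.0, 87.7 and 97.0 CPM with Act D. The lines did not overlap, and the difference with vehicle was 1.00 on the log2 scale (standard error 0.10, adjusted p = 5.3e-08), while Act D gave 0.18 in libraries labelled uL3Δ (adjusted p = 0.25). The difference between the responses of ZNF622 in the lines did not pass the interaction test. ZNF593 differed in no comparison, with log2 fold changes between -0.35 and 0.00. ZNF598, the ubiquitin ligase that marks collided ribosomes, was higher in libraries labelled uL3Δ by 0.65 with vehicle (adjusted p = 2.2e-05) and by 0.45 with Act D (adjusted p = 0.00099), and Act D gave 0.06 and -0.14 in the respective lines, neither past the test.

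ZNF143, an activator of snRNA and housekeeping promoters, was at 26.0, 26.4 and 23.9 CPM in HCT 116 p53-/- cells and at 58.1, 83.3 and 79.3 CPM in libraries labelled uL3Δ with vehicle (1.54 ± 0.12 SE, adjusted p = 3e-09). ZNF532 was higher there by 1.42, ZNF410, an activator of CHD4, by 0.71 and ZNF281 by 0.61. ZNF410 fell with Act D by 0.52 in libraries labelled uL3Δ (adjusted p = 0.0017), and CHD4 changed by 0.08 (adjusted p = 0.56) in the same comparison. ZNF148 fell with Act D in both lines, by 0.35 (adjusted p = 0.015) and 0.63 (adjusted p = 0.0003). The former call was lost under 4 of 16 alternatives, among them without Act D replicate 1, Act D replicate 2 or vehicle replicate 1. ZNF451, a SUMO ligase, fell by 0.41 in libraries labelled uL3Δ (adjusted p = 0.0073). ZNF207, ZNF24 and ZNF326 passed no comparison. ZNF638, which acts with the HUSH complex on unintegrated retroviral DNA, and ZNF121 were lower in libraries labelled uL3Δ by -0.59 and -0.82, while ZNF592 and ZNF687, of the ZMYND8 complex, differed by 0.24 (adjusted p = 0.044) and -0.29 (adjusted p = 0.030), calls that several alternatives lost.

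Within groups, the members with the largest coefficient of variation were ZNF385A at 34.3%, ZNF184 at 32.0% and ZNF616 at 32.0%. ZNF385A was at 10.8, 13.1 and 20.5 CPM in vehicle-treated HCT 116 p53-/- cells, ZNF184 at 5.54, 8.71 and 10.9 CPM in libraries labelled uL3Δ with vehicle, and ZNF616 at 6.25, 11.9 and 8.46 CPM in those with Act D.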

How the data were processed

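RNA was sequenced from both ends from TruSeq libraries. The authors assigned reads to genes of hg38 with RSEM 1.2.25 and deposited expected counts (not normalized), TPM, and a posterior standard deviation of each count, a score of how uncertainly reads were shared between genes. The deposited values of vehicle-treated HCT 116 p53-/- replicate 2 are per transcript and were summed per gene. Members were chosen on expected counts over the library total. Expected counts were rounded and genes filtered with filterByExpr (15692 of 33990 with a count), and the 12 libraries were fitted with TMM factors in 1 model with edgeR 4.0.16. All adjusted p are from its quasi-likelihood test with Benjamini-Hochberg adjustment over these genes, with a threshold of 0.05, and CPM are TMM-scaled. The test was first run on simulated data, in which only a small share of genes changed, between the lines with vehicle. That run does not cover comparisons in which most genes passed. Alternatives were DESeq2 1.42.0, the likelihood-ratio test, other scalings, filters, sample sets and member thresholds, the replicate number as a block and each library left out.

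Names and coordinates are from GENCODE v44 (60261 of 60617 identifiers matched). Fingers (C-x(2,4)-C-x(12)-H-x(3,5)-H) and KRAB boxes (at least 13 of 41 consensus positions) were found in translated canonical transcripts, since no protein table was used. The named members were the 6 with the largest change in each direction of each comparison that passed and, between groups, did not overlap, the 6 with the highest TPM, members of a list of known roles, those next to the threshold, and the 3 most variable in groups with a mean of at least 5 CPM. The members and lists were chosen with earlier results of these data known. Replicate numbers were taken from the titles. In the descriptions, the uL3Δ Act D libraries carry numbers 4 to 6.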

Additional observations from a re-analysis of the deposited data

Results flagged for a closer look

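The difference between the lines in the response to Act D passed the interaction test for the members named here, each as the log2 response in the libraries labelled uL3Δ minus that in HCT 116 p53-/- cells. It was higher by 0.84 for ZNF33B, 0.74 for ZNF609, 0.69 for ZNF367, 0.66 for ZNF646, 0.66 for ZNF316 and 0.64 for ZNF608. It was -0.94 for ZNF282, -0.80 for ZNF654, -0.76 for ZNF746, -0.73 for ZNF484, -0.69 for ZNF430 and -0.62 for ZNF697. The groups of 3 libraries were too small for a search for single outlying libraries.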

How the results depend on the processing

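Between the lines, the members' median log2 fold change stayed below 0 in every setting for which it was taken. These were the scalings, the GC and length offsets, the member thresholds and each library left out. For the other tests, filters, sample sets and the replicate block, only the numbers of calls were compared. With GC and length offsets, chosen after seeing the data, it was -0.43 with vehicle and -0.55 with Act D, and by library size alone -0.83 in both. The median was -0.21 and -0.34 for members at 10 CPM or more in each group, -0.36 and -0.47 for a mean of at least 20 CPM, -0.64 and -0.68 for at least 5 CPM, and -0.62 with vehicle by upper quartile. Leaving out a library gave -0.58 to -0.53 and -0.66 to -0.55. With Act D in HCT 116 p53-/- cells it was 0.0258 with the offsets, -0.11 by library size, 0.0205 for members in each group, 0.0207 for 20 CPM and 0.0218 by upper quartile. In the libraries labelled uL3Δ it was -0.18 by library size, -0.0414 for 5 CPM, -0.0189 by upper quartile and -0.12 to -0.056 without a library. For the interaction it was -0.13 with the offsets, -0.16 for members in each group, -0.10 for 20 CPM and -0.17 to -0.0369 without a library.

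A log2 fold change of at least 1 left 69 and 72 members between the lines (vehicle, Act D), 3 and 5 with Act D (HCT 116 p53-/-, labelled uL3Δ) and 0 in the interaction. Members in each group gave 79, 82 and 21, and 20 CPM 83, 87, 26 and, in the interaction, 12. Without a library the counts were 138 to 143 and 140 to 146 between the lines, 27 to 38 and 29 to 44 with Act D, and 6 to 23 in the interaction, where it was lowest without HCT 116 p53-/- Act D replicate 1 (8), 2 (10) or 3 (9), vehicle replicate 2 (9) or 3 (8), or labelled uL3Δ Act D replicate 1 (6). The offsets gave 33 in the interaction, 9 higher and 24 lower, and 31 higher and 18 lower with Act D in HCT 116 p53-/-, where library size alone gave 12 and 31. DESeq2 gave 26 in the interaction.

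With a replicate block the interaction had 10 members, 6 higher and 4 lower, and Act D in the libraries labelled uL3Δ 9 higher and 31 lower. No source pairs the numbers, and same-numbered libraries did not deviate together (r from -0.104 to 0.101). Splits there were also 10 and 41 without a filter and 6 and 29 when only its own groups were fitted, and 6 and 15 in the interaction without a filter. Of 155 calls for named members, 114 held in all other fits, scalings and filters and without each library, 41 were lost in at least 1 and 1 reversed, ZNF316 between the lines with vehicle, at 0.0932 with the offsets. The causes were not tested. Depth limits the members nearly absent from a line, where as few as 10 counts stand behind a group.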
